A study of Mus musculus with 6 samples.

Results

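Transcripts of 10 marker genes of lipid-associated macrophages were measured in bulk liver RNA of mice on a Western diet. The genes are Trem2, Gpnmb, Cd9, Cd63, Spp1, Lgals3, Capg, Fabp5, Anxa5 and Atp6v0d2. They were taken by gene name from the table of 29734 genes, where all 10 stood on 1 row each, and all 10 passed the filter on low counts that left 18931 genes to test. Prdx1 C52S was represented by 3 liver libraries (1, 2 and 4) of male mice whose allele replaces cysteine 52 of peroxiredoxin 1, a thiol peroxidase, with serine. WT was represented by 3 liver libraries (6, 8 and 9) of male mice. Mice of both genotypes entered the diet when 8 weeks old and stayed on it for 20 weeks, so that no liver without the diet is compared here. Strain, zygosity of the allele and the identity of the animals were not given in the sources used here, and p-values therefore measure the spread between libraries. Levels are FPKM, fragments scaled to transcript length and library size. A negative log2 fold change means a lower level in Prdx1 C52S than in WT. Fold changes, and the SE where one is given, come from an edgeR fit to TMM-scaled estimated counts unless another method is named.

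Lipid-associated macrophages are cells that gather around dying or fat-laden cells in adipose tissue, atherosclerotic vessels and the steatotic liver. The receptor TREM2 binds lipids and lipoproteins and signals through the adaptor TYROBP, and cells of this state carry genes for lipid uptake, lysosomal digestion and the extracellular matrix. None of the 10 transcripts is restricted to macrophages. Osteopontin, encoded by Spp1, is also made by bile duct epithelium, and Cd9, Cd63 and Anxa5 are expressed by many cell types. In bulk tissue, fewer cells of a type and less RNA per cell cannot be told apart.

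Library totals lay between 60326469 and 76164949 estimated counts, and the members had between 363 and 100611 of them per library. All 15 general macrophage markers, such as Lyz2, were detected in every library, and their summed level was between 308 and 359 FPKM in Prdx1 C52S and between 705 and 768 FPKM in WT. WT 8 stood apart from WT 6 and WT 9. Its 13 cholangiocyte markers summed to 165 FPKM, beside 31.4 and 22 FPKM in WT 6 and WT 9, and its 7 Kupffer cell markers summed to 36.3 FPKM, beside 247 and 278 FPKM. Fold changes of the members are therefore given with and without WT 8, and so are some of the results on other genes. Prdx1 itself was at 247 ± 12.2 FPKM in Prdx1 C52S, against 246 ± 20.7 FPKM in WT (SD, n = 3 each), a level that does not check the genotype, since a substitution leaves the transcript in place.

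The 10 genes lie on 7 chromosomes (GRCm38), with 3 of them, Gpnmb, Cd9 and Capg, on chromosome 6 and 2, Fabp5 and Anxa5, on chromosome 3. The receptor and membrane genes are Trem2 (chr17:48346401-48354147, plus strand), Gpnmb (chr6:49036546-49070929, plus strand), Cd9 (chr6:125460266-125494791, minus strand) and Cd63 (chr10:128900989-128912822, plus strand). The genes of secreted proteins are Spp1 (chr5:104435118-104441050, plus strand) and Lgals3 (chr14:47367751-47386160, plus strand). Those of proteins inside the cell are Capg (chr6:72544391-72562983, plus strand), Fabp5 (chr3:10012548-10016607, plus strand), Anxa5 (chr3:36448923-36475894, minus strand) and Atp6v0d2 (chr4:19876841-19922605, minus strand). RefSeq promoter windows (GRCm38.p6, 300 bases, most of them upstream of a start site) were matched for 8 genes in 9 windows, and Fabp5 and Atp6v0d2 had no entry in the table used. Each window was searched on both strands for 5 short motifs. Those were CACGTG and CATGTG, bound by the lysosomal regulators of the MiT/TFE family, TGANTCA of AP-1, GAGGAA, the core bound by the myeloid factor PU.1, and AGGTCA, a half-site of nuclear receptors. CACGTG stood in 0 of 9 windows (7.15% of all 32851 windows), CATGTG in 1 (14.2%), TGANTCA in 2 (7.81%), GAGGAA in 3 (28.3%) and AGGTCA in 2 (16.3%). The windows of Trem2 and Gpnmb and 1 of 2 windows of Spp1 are shown. They were picked because Trem2 gives the cell state one of its names and Gpnmb and Spp1 had the least alike profiles of the 10 genes. Every match is in capitals on the strand of the gene, so that TTCCTC is GAGGAA and TGACCT is AGGTCA on the other strand. No match overlaps another. A match is a description of letters and not of a bound site.
Trem2, chr17:48346151-48346450, plus strand: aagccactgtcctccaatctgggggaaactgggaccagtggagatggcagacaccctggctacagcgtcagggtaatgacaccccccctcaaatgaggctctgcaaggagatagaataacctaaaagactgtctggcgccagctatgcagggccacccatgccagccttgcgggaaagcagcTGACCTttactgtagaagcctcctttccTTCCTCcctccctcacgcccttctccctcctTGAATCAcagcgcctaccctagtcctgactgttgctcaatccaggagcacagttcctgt
Gpnmb, chr6:49036268-49036567, plus strand: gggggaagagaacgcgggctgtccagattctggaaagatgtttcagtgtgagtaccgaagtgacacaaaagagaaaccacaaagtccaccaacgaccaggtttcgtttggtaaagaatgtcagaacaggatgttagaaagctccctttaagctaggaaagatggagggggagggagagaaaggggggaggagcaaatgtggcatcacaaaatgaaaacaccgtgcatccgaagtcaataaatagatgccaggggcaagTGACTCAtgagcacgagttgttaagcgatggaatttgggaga
Spp1, chr5:104434861-104435160, plus strand: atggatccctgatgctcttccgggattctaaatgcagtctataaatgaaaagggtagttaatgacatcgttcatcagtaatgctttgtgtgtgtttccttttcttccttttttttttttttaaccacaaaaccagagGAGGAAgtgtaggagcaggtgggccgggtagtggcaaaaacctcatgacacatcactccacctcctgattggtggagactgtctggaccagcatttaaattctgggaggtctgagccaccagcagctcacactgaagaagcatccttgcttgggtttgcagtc
With positions counted from the start site and negative upstream, the Trem2 window holds a nuclear receptor half-site from position -68, a PU.1 core from -40 and an AP-1 element from -9. The Gpnmb window holds an AP-1 element from position 9, counted from the RefSeq start, which lies upstream of the gene start given above, so that the element is outside the gene as the deposited table places it. The Spp1 window shown holds a PU.1 core from -113, and the other Spp1 window (chr5:104435942-104436241, not shown) held none of the 5 motifs.

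All 10 transcripts had lower mean levels in the Prdx1 C52S livers, from 0.192 of the WT mean for Spp1 to 0.598 for Atp6v0d2, and the median log2 fold change was -0.81 (-0.03 over all genes tested). All 10 fold changes were negative, beside 53.0% of all genes tested. The FPKM ranges of the groups did not overlap for 9 of the 10, with Prdx1 C52S lower, beside 36.7% of all genes tested. After TMM scaling 7 of the 10 had groups without overlap, beside 18.0% of all genes. With Benjamini-Hochberg adjustment over all genes, edgeR called no member at 0.05 (0.0% of all genes lower), while 8 had an unadjusted p under 0.05 with Prdx1 C52S lower, beside 14.8%. DESeq2 called 6 of the 10 lower (9.1% of all genes tested), namely Trem2, Cd9, Cd63, Spp1, Capg and Fabp5. Voom with library quality weights called 5 (5.31%), namely Trem2, Cd63, Spp1, Capg and Atp6v0d2. Without WT 8, edgeR called 0 of the 10 (1.94% of all genes lower), and the members' median was -0.90. Limma on log2(FPKM + 0.1) called Cd63 (1.17%). No member was called by limma on log2(FPKM + 1) (0.497%), nor by edgeR with library totals only (0.66%), without a filter (0.306%) or without WT 9 (0.351%). The general macrophage markers moved in the same libraries, with 14 of 15 negative (median -0.68, and -0.82 without WT 8). EdgeR called 0 of the 15 with all libraries, with 11 lower at an unadjusted p under 0.05. DESeq2 called 9 of these markers lower, and edgeR called 9 lower without WT 8. Among these markers, Adgre1 had a log2 fold change of -0.41 (adjusted p = 0.341 by edgeR). Without WT 8 the Adgre1 value was -0.67 (adjusted p = 0.0144 by edgeR). The part of the general macrophage markers in the members' levels was not tested.

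**Figure D1:**
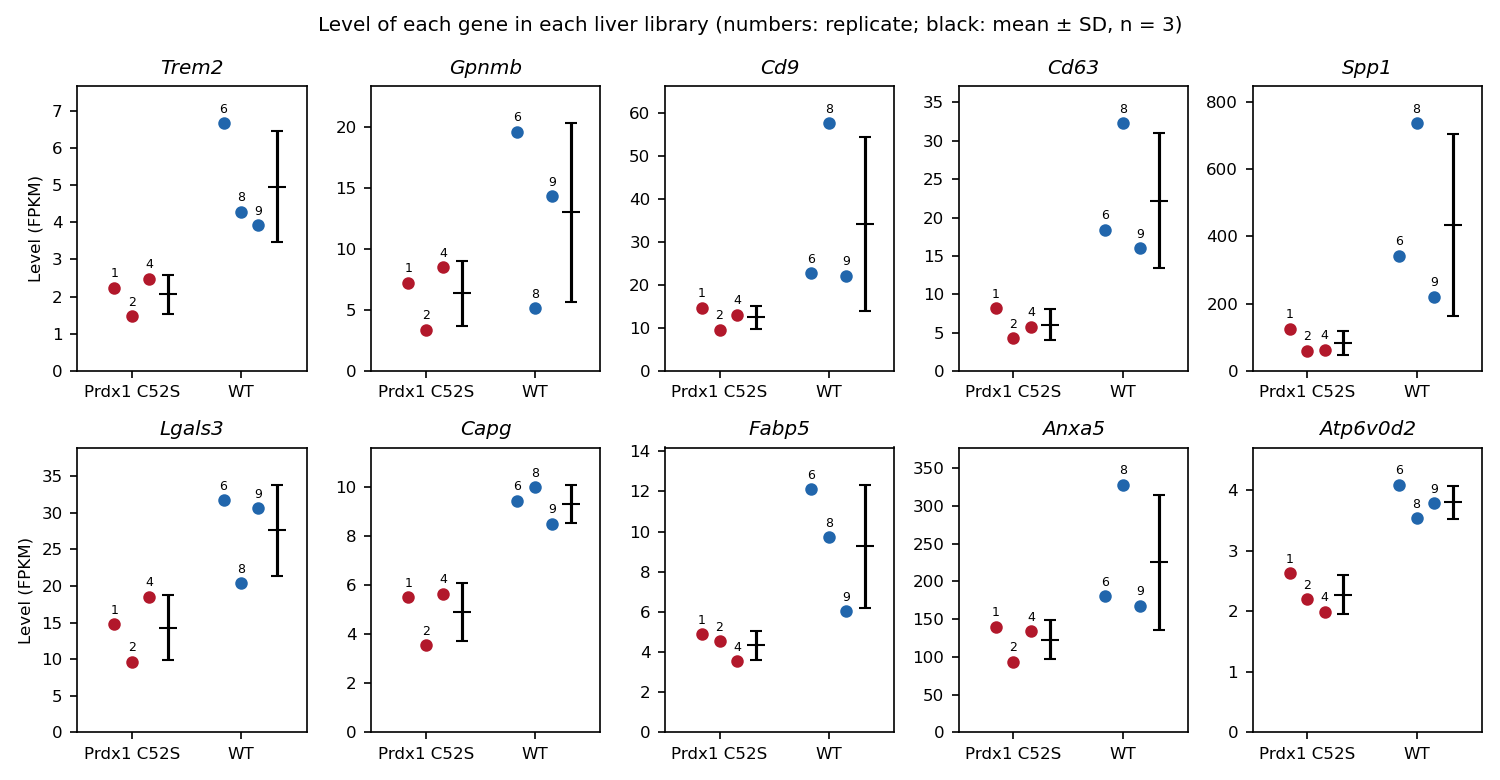
Level in FPKM (vertical axis, from 0) of each of the 10 genes in the 3 Prdx1 C52S libraries (red, left) and the 3 WT libraries (blue, right), with the replicate number beside each point and the mean ± SD in black. The groups overlap only for Gpnmb, where WT 8 (5.13 FPKM) lies among the Prdx1 C52S libraries.

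Trem2, the lipid-binding receptor that gives the cell state one of its names, was at 2.24, 1.48 and 2.48 FPKM in Prdx1 C52S 1, 2 and 4, against 6.67, 4.29 and 3.92 FPKM in WT 6, 8 and 9. Every Prdx1 C52S library lay below every WT library, and WT 6 was the highest. Its log2 fold change was -0.99 (SE 0.29, adjusted p = 0.109 by edgeR), and it was -1.17 (SE 0.30, adjusted p = 0.09 by edgeR) without WT 8 and -0.66 without WT 6. Gpnmb, a glycoprotein of lysosomal and late endosomal membranes, was at 7.24, 3.37 and 8.49 FPKM in Prdx1 C52S 1, 2 and 4, against 19.6, 5.13 and 14.3 FPKM in WT 6, 8 and 9. WT 8 was below 2 of the 3 Prdx1 C52S libraries, so that the groups overlapped. The Gpnmb log2 fold change was -0.81 (SE 0.57, adjusted p = 0.407 by edgeR). Leaving out WT 8 gave -1.22 and leaving out WT 6 gave -0.35.

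The tetraspanins Cd9 and Cd63, proteins with 4 membrane spans that organise other membrane proteins, were highest in WT 8. Cd9, found mainly at the cell surface, was at 14.7, 9.58 and 13.1 FPKM in Prdx1 C52S 1, 2 and 4, against 22.8, 57.7 and 22.2 FPKM in WT 6, 8 and 9. WT 8 held 2.56 times the mean of the other WT libraries, and the log2 fold change of -1.10 (SE 0.31, adjusted p = 0.107 by edgeR) was -0.66 (SE 0.16, adjusted p = 0.0615 by edgeR) without it. Cd63, a protein of late endosomes, lysosomes and exosomes, was at 8.17, 4.25 and 5.74 FPKM in Prdx1 C52S 1, 2 and 4, against 18.4, 32.3 and 16.0 FPKM in WT 6, 8 and 9. The lowest WT library was 1.96 times the highest Prdx1 C52S library, the widest gap among the 10 genes. With a log2 fold change of -1.55 (SE 0.27), Cd63 had the smallest edgeR adjusted p of the 10 (0.068), and without WT 8 the value was -1.32 (SE 0.26, adjusted p = 0.0539 by edgeR). The transcript Cd63-ps is 98.0% identical over 858 bases, and how shared reads were divided is not given in the sources used here. Cd63-ps was at 2.37, 1.2 and 1.81 FPKM in Prdx1 C52S 1, 2 and 4, against 3.92, 8.77 and 4.22 FPKM in WT 6, 8 and 9, with every Prdx1 C52S library below every WT library.

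Among the secreted members, Spp1 had the largest difference of the 10. This gene of osteopontin, a matrix protein and ligand of integrins and CD44, was at 125, 60.1 and 63.4 FPKM in Prdx1 C52S 1, 2 and 4, against 342, 736 and 220 FPKM in WT 6, 8 and 9. The groups did not overlap, and levels spanned 12.3 times between the lowest and the highest library. The log2 fold change was -2.03 (SE 0.43, adjusted p = 0.0819 by edgeR), and it was -1.58 (SE 0.42, adjusted p = 0.129 by edgeR) without WT 8. Spp1 made up between 24.6% and 38.5% of the summed FPKM of the 10 genes in Prdx1 C52S libraries and between 44.6% and 61.0% in WT libraries. The 13 cholangiocyte markers, none of them at 0 in any library, moved in the same libraries, with sums between 9.1 and 14.1 FPKM in Prdx1 C52S and between 22 and 165 FPKM in WT. All 13 had negative log2 fold changes (median -2.90, and -1.55 without WT 8), beside 53.0% of all genes tested. EdgeR called 0 of them with all libraries and only 1 lower without WT 8 (1.94% of all genes lower). With all libraries, 12 had an unadjusted p under 0.05 (14.8% of all genes lower) and DESeq2 called 12 lower (9.1%). Krt19, a keratin of bile duct cells, was at 1.59, 0.554 and 0.507 FPKM in Prdx1 C52S 1, 2 and 4, against 3.97, 30.9 and 2.09 FPKM in WT 6, 8 and 9. The Krt19 log2 fold change was -3.36 (adjusted p = 0.117 by edgeR), and -1.59 (adjusted p = 0.168 by edgeR) without WT 8. The part of bile duct cells in the Spp1 level was not tested. The predicted transcript Gm42793 overlaps Spp1 on the same strand and shares 181 identical bases with it. Its reads may not have been told apart.

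Lgals3, which encodes the beta-galactoside-binding lectin galectin-3, was at 14.8, 9.64 and 18.5 FPKM in Prdx1 C52S 1, 2 and 4, against 31.7, 20.4 and 30.6 FPKM in WT 6, 8 and 9. WT 8 was the lowest WT library and 1.1 times the highest Prdx1 C52S library. Its log2 fold change was -0.69 (SE 0.31, adjusted p = 0.212 by edgeR), against -0.93 (SE 0.26, adjusted p = 0.111 by edgeR) without WT 8.

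Capg, an actin-capping protein of the gelsolin family, was at 5.52, 3.56 and 5.66 FPKM in Prdx1 C52S 1, 2 and 4, against 9.45, 10 and 8.51 FPKM in WT 6, 8 and 9. The groups were apart, and the WT libraries were close together (coefficient of variation 8.28%). Its log2 fold change of -0.63 (SE 0.18, adjusted p = 0.106 by edgeR) was -0.68 without WT 8. Fabp5, a carrier of fatty acids in the cytoplasm, was at 4.9, 4.55 and 3.54 FPKM in Prdx1 C52S 1, 2 and 4, against 12.1, 9.71 and 6.03 FPKM in WT 6, 8 and 9. The groups did not overlap, and the log2 fold change was -0.81 (SE 0.26, adjusted p = 0.12 by edgeR). It was -0.87 (SE 0.32, adjusted p = 0.197 by edgeR) without WT 8 and -0.50 without WT 6. Of its 2 near-identical processed pseudogenes in the table, Gm6166 (98.3% identity over 409 bases) was at 1.36, 0.142 and 0.263 FPKM in Prdx1 C52S 1, 2 and 4, against 2.63, 1.78 and 0.997 FPKM in WT 6, 8 and 9. The other, Gm14328, was too low to test, so the Fabp5 values are uncertain by the share of reads that these copies took or gave.

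Anxa5, a calcium-dependent protein that binds phosphatidylserine on dying cells, was above Spp1 in every Prdx1 C52S library and below it in every WT library. It was at 140, 93.8 and 134 FPKM in Prdx1 C52S 1, 2 and 4, against 180, 328 and 168 FPKM in WT 6, 8 and 9. WT 8 was the highest, and the log2 fold change of -0.55 (SE 0.23, adjusted p = 0.183 by edgeR) was -0.32 (SE 0.16, adjusted p = 0.301 by edgeR) without it. Atp6v0d2, a subunit isoform of the proton pump that acidifies lysosomes, was at 2.63, 2.2 and 1.99 FPKM in Prdx1 C52S 1, 2 and 4, against 4.09, 3.54 and 3.78 FPKM in WT 6, 8 and 9. It varied least within WT (coefficient of variation 7.16%) and had the smallest fold change of the 10, -0.46 (SE 0.18, adjusted p = 0.168 by edgeR), against -0.60 (SE 0.16, adjusted p = 0.0727 by edgeR) without WT 8. Its FPKM ranges did not overlap, but its TMM-scaled ranges did, as for Gpnmb and Lgals3.

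**Figure D2:**
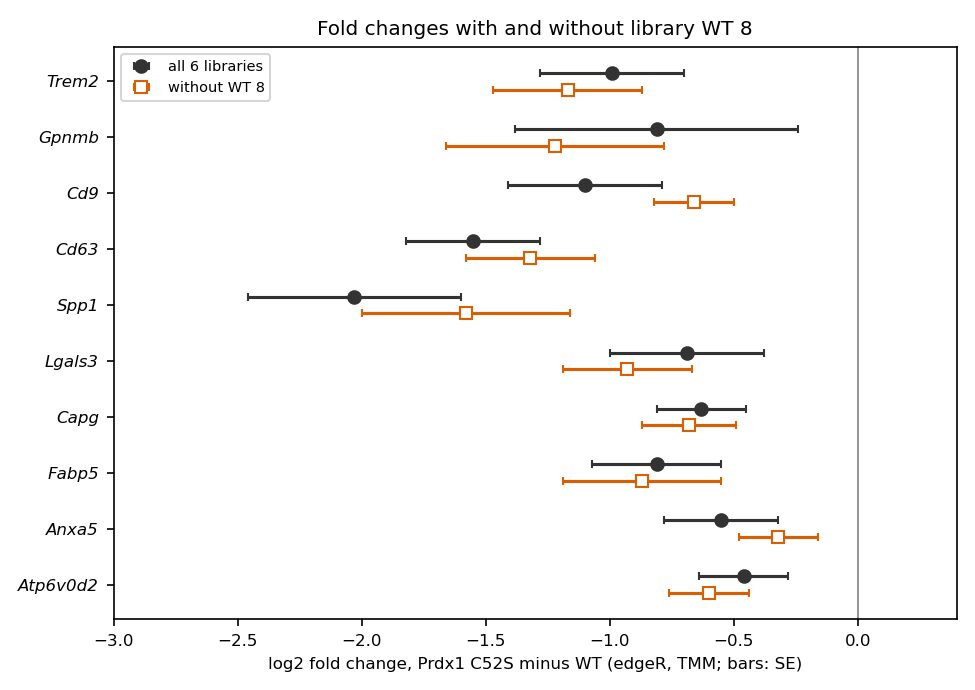
Log2 fold change, Prdx1 C52S minus WT (horizontal axis), with its SE for each of the 10 genes, from all 6 libraries (filled circles) and without WT 8 (open squares). Leaving out WT 8 brings Cd9, Cd63, Spp1 and Anxa5 nearer to 0, and takes the other 6 further from it.

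Part of the 10 genes followed one another from library to library and part did not. Cd9, Cd63, Spp1 and Anxa5 had the same order of FPKM over all 6 libraries. In FPKM, 5 members (Cd9, Cd63, Spp1, Capg and Anxa5) were highest in WT 8 among the WT libraries, 3 (Gpnmb, Lgals3 and Atp6v0d2) were lowest there, and Trem2 and Fabp5 lay between WT 6 and WT 9. In TMM-scaled log2 CPM, Capg and Trem2 were also lowest in WT 8 among the WT libraries, with Capg deviating from its mean by 0.23 there and by 0.45 and 0.31 in WT 6 and WT 9. In Prdx1 C52S, library 2 was the lowest for 8 members, the exceptions being Fabp5 and Atp6v0d2, which were lowest in library 4. Over the 6 libraries, the centred log2 CPM profiles of Gpnmb and Spp1 were the least alike of the 45 pairs, with a root mean square difference of 1.31. Capg stood in the 4 most alike pairs, with Anxa5 (0.26) and with Trem2, Lgals3 and Atp6v0d2 (0.27 each). Kupffer cell markers were far lower in WT 8 than elsewhere, with Clec4f, a lectin of resident Kupffer cells, at 2.56 FPKM there and between 29.3 and 46.0 FPKM in the other 5 libraries, and Timd4 listed at 0. The sum of these 7 markers was between 167 and 216 FPKM in Prdx1 C52S and between 36.3 and 278 FPKM in WT, and their part in the Gpnmb and Lgals3 values of WT 8 was not tested.

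**Figure D3:**
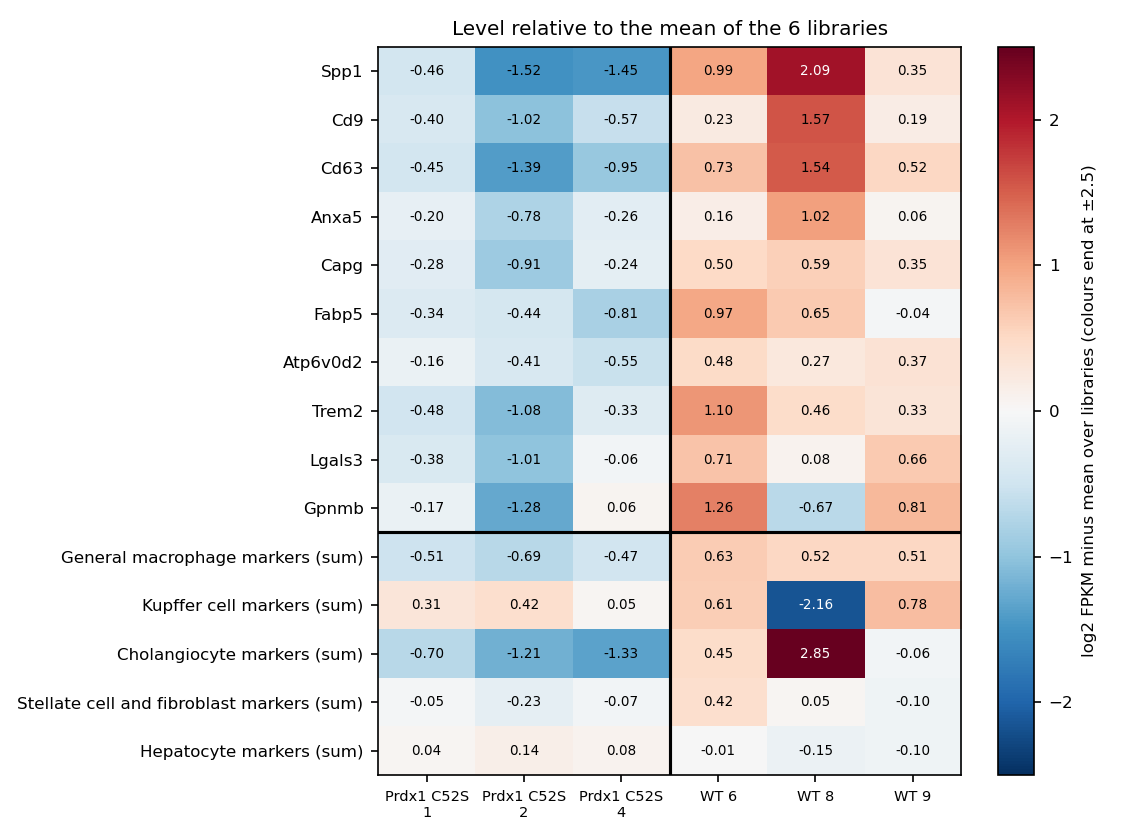
Log2 FPKM of each of the 10 genes, and of the summed FPKM of 5 marker lists, minus the mean over the 6 libraries, with Prdx1 C52S in the left 3 columns and WT in the right 3. Spp1, Cd9, Cd63, Capg and Anxa5 share their highest value in WT 8 with the cholangiocyte sum (2.85), while Gpnmb (-0.67) is below its mean there, as is the Kupffer cell sum (-2.16).

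Each member was also set beside the macrophage transcripts of the same library, by subtracting the mean log2(FPKM + 0.1) of the 15 general macrophage markers, which itself differed by -0.99 (Prdx1 C52S minus WT). On this scale 9 of the 10 members had overlapping groups. Trem2 averaged -2.15 ± 0.23 in Prdx1 C52S libraries, against -1.92 ± 0.30 in WT, a difference of -0.23 (SD, n = 3 each, exact permutation p = 0.5, two-sided). Gpnmb (0.07), Lgals3 (0.03), Capg (0.05) and Fabp5 (-0.05) differed by less than the SD within either group. Cd9 (-0.33) had a lower mean in Prdx1 C52S, and Anxa5 (0.16) and Atp6v0d2 (0.26) had higher ones, all with overlapping groups. Cd63 was the member without overlap, averaging -0.66 ± 0.36 in Prdx1 C52S libraries, against 0.19 ± 0.59 in WT, a difference of -0.85 (exact permutation p = 0.1, two-sided, the smallest that 3 against 3 allows). Its groups were only narrowly apart, with Prdx1 C52S 1 at -0.25, WT 9 at -0.17, WT 6 at -0.13 and WT 8 at 0.87. The share of all genes without overlap on this scale was not computed. Spp1 averaged 3.06 ± 0.54 in Prdx1 C52S libraries, against 4.35 ± 0.92 in WT, a difference of -1.30 (exact permutation p = 0.2, two-sided), with Prdx1 C52S 1 (3.67) above WT 9 (3.60). Without WT 8 the differences were -0.51 for Cd63, -0.78 for Spp1, 0.14 for Capg and 0.50 for Anxa5. The sign turned without WT 8 for Cd9 (0.16), Gpnmb (-0.45), Lgals3 (-0.14) and Fabp5 (0.05).

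**Figure D4:**
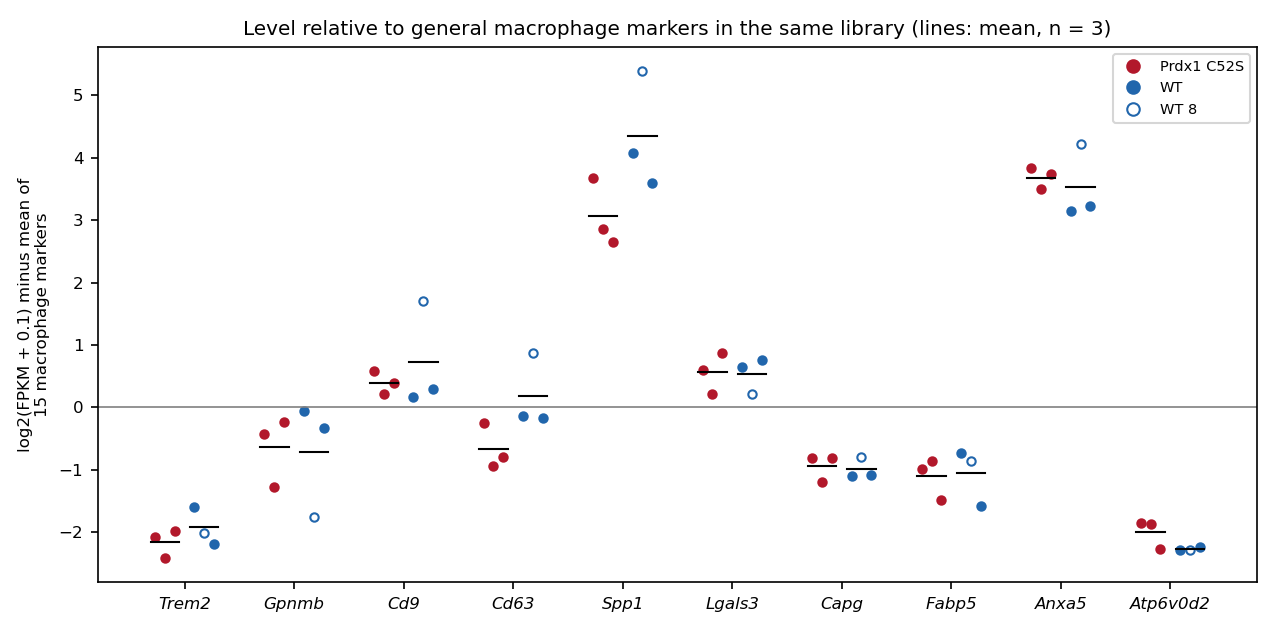
Log2(FPKM + 0.1) of each of the 10 genes minus the mean of 15 general macrophage markers in the same library, for Prdx1 C52S (red, left) and WT (blue, right; WT 8 open), with lines at the group means. Cd63 is the gene whose groups do not overlap, and WT 8 is the highest WT library for Cd9, Cd63, Spp1, Capg and Anxa5 and the lowest for Gpnmb and Lgals3.

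The partners of TREM2 were listed as 12 genes, with a median log2 fold change of -0.48 over the 12. EdgeR called 0 of them in either direction. Negative fold changes were seen for 10 (53.0% of all genes tested), 7 of those with an unadjusted p under 0.05 (14.8% of all genes lower). Without WT 8 edgeR called Tyrobp and Syk lower (1.94% of all genes). DESeq2 called Plcg2, Inpp5d and Clu lower with all libraries (9.1% of all genes). The adaptor Tyrobp was at 33.0, 26.6 and 33.5 FPKM in Prdx1 C52S 1, 2 and 4, against 57.9, 49.9 and 52 FPKM in WT 6, 8 and 9 (log2 fold change -0.50, adjusted p = 0.115 by edgeR, and -0.63, adjusted p = 0.0317 by edgeR without WT 8). The groups did not overlap. Plcg2, the phospholipase downstream of the receptor, was at 0.846 ± 0.203 FPKM in Prdx1 C52S, against 2.1 ± 0.428 FPKM in WT (log2 fold change -1.01). The lipid phosphatase Inpp5d, which restrains the same signal, was at 1.28 ± 0.282 FPKM in Prdx1 C52S, against 2.67 ± 0.615 FPKM in WT (-0.76). Of the lipoprotein ligands, Clu was at 344 ± 26 FPKM in Prdx1 C52S, against 601 ± 153 FPKM in WT (-0.49, adjusted p = 0.13 by edgeR). Apoe (0.53, adjusted p = 0.217 by edgeR) and Apob (0.34, adjusted p = 0.388 by edgeR), mainly made by hepatocytes, had positive log2 fold changes. Without WT 8 the values were -0.39 for Clu, 0.34 for Apoe and 0.15 for Apob. The hepatocyte marker Alb had 0.48 (adjusted p = 0.212 by edgeR), and 0.36 (adjusted p = 0.0483 by edgeR) without WT 8.

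A further 28 genes often found in lipid-handling macrophages had a median log2 fold change of -0.27. Of these 20 were negative (53.0% of all genes tested), and edgeR called 0 with all libraries. An unadjusted p under 0.05 was held by 11 lower and 1 higher (2807 and 2176 of all 18931 genes). DESeq2 called 8 lower and 1 higher (1723 and 1399 of all genes). Without WT 8 edgeR called 4 lower (Cd44, Grn, Fabp4 and Ms4a7) and 1 higher (Creg1), beside 375 and 522 of 19337 genes. Ms4a7, a membrane protein of recruited macrophages, was at 1.01, 0.585 and 1.02 FPKM in Prdx1 C52S 1, 2 and 4, against 3.18, 5.59 and 2.73 FPKM in WT 6, 8 and 9 (log2 fold change -1.80, SE 0.27, adjusted p = 0.0587 by edgeR). Its groups lay far apart, with the highest value in WT 8. Fabp4, a fatty acid carrier of macrophages, adipocytes and capillary endothelium, was at 5.85 ± 0.876 FPKM in Prdx1 C52S, against 13.3 ± 2.82 FPKM in WT (-0.88, adjusted p = 0.0601 by edgeR). The lysosomal regulator Grn was at 38.6 ± 4.0 FPKM in Prdx1 C52S, against 74.1 ± 2.75 FPKM in WT (-0.66, adjusted p = 0.0767 by edgeR), and Lpl, the lipase of triglyceride-rich lipoproteins, at 7.76 ± 0.131 FPKM in Prdx1 C52S, against 14.0 ± 3.43 FPKM in WT (-0.54, adjusted p = 0.0874 by edgeR).

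Receptors of osteopontin and the rest of the proton pump were taken as separate lists. Of 8 osteopontin receptor chains, edgeR called 0 with all libraries and 3 lower without WT 8 (1.94% of all genes), namely Cd44, Itgav and Itga4. With all libraries 3 had an unadjusted p under 0.05 (14.8% of all genes lower) and DESeq2 called 3 lower (9.1%). Cd44 was at 2.74, 2.67 and 2.69 FPKM in Prdx1 C52S 1, 2 and 4, against 4.43, 7.92 and 4.12 FPKM in WT 6, 8 and 9 (log2 fold change -0.69, adjusted p = 0.0875 by edgeR), and, like Spp1, was highest in WT 8. Itgav was at 2.04 ± 0.0708 FPKM in Prdx1 C52S, against 4.23 ± 1.8 FPKM in WT (-0.72), and Itga4 at 0.73 ± 0.125 FPKM in Prdx1 C52S, against 1.39 ± 0.142 FPKM in WT (-0.63). The 17 other subunits of the vacuolar proton pump had a median of -0.08, close to the median of all genes (-0.03). EdgeR called 0 with all libraries. Of the 17, 3 had an unadjusted p under 0.05 (14.8% of all genes lower) and DESeq2 called 1 lower (9.1%). Tcirg1, the subunit isoform of osteoclasts and macrophages, was at 10.6, 8.67 and 9.93 FPKM in Prdx1 C52S 1, 2 and 4, against 16.9, 18.0 and 15.9 FPKM in WT 6, 8 and 9 (-0.51, adjusted p = 0.0803 by edgeR). Its FPKM ranges did not overlap, but 15 of the 17 subunits, itself included, were lower without overlap in FPKM (36.7% of all genes tested). Without WT 8 it was the only subunit of the 17 that edgeR called (log2 fold change -0.56, adjusted p = 0.028 by edgeR).

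**Figure D5:**
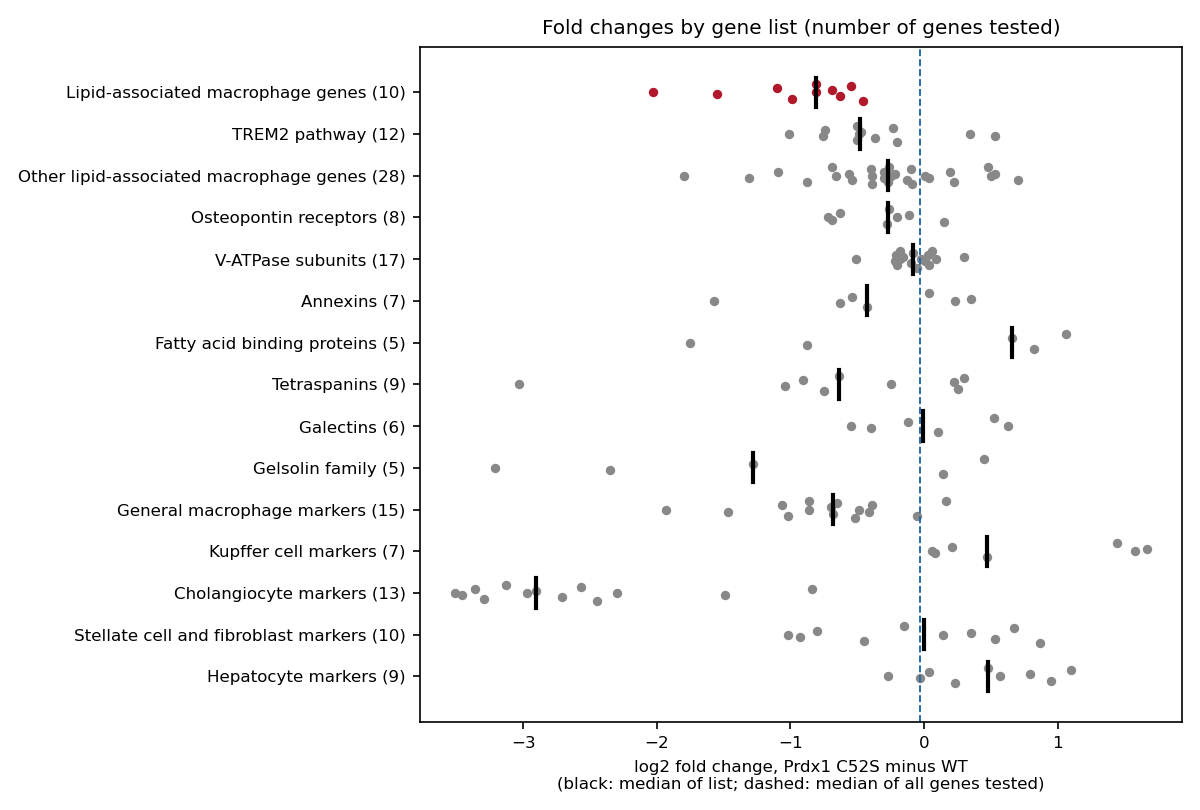
Log2 fold change, Prdx1 C52S minus WT (horizontal axis, edgeR, all 6 libraries), of each tested gene in the 10 lipid-associated macrophage genes (red) and 14 other lists (grey), with the list's median as a black bar and the median of all genes tested (-0.03) as a dashed line. The 10 genes lie between -2.03 and -0.46, beside general macrophage markers with a median of -0.68 and cholangiocyte markers with a median of -2.90.

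The genes whose profiles were nearest to 3 of the members, by root mean square difference of centred log2 CPM over the 6 libraries among 11227 candidates, differed from member to member. Nearest to Trem2 were Tlr13 (0.086) and Tlr7 (0.126), endosomal receptors of RNA, then Cd72, Bcl2a1b and Cd200r1. Tlr13 was at 1.42, 0.879 and 1.44 FPKM in Prdx1 C52S 1, 2 and 4, against 4.18, 2.67 and 2.75 FPKM in WT 6, 8 and 9, so that WT 6 was the highest, as for Trem2. Nearest to Gpnmb, at larger distances, were Clec4b1 (0.363), the chemokine Ccl6 (0.385), Adam8, Rgs1 and the macrophage elastase Mmp12 (0.425). The member Lgals3, outside this search, was nearer to Gpnmb (0.41) than Mmp12 was. Clec4b1 was at 0.821, 0.542 and 0.91 FPKM in Prdx1 C52S 1, 2 and 4, against 3.1, 1.12 and 1.67 FPKM in WT 6, 8 and 9. WT 8 was its lowest WT library, as for Gpnmb. Nearest to Spp1 were Tmem45a (0.056), Ptgis (0.169), Kcnn4, Dpt and Mfap2. Dpt, which encodes the matrix protein dermatopontin, was at 7.93, 4.7 and 4.38 FPKM in Prdx1 C52S 1, 2 and 4, against 26.4, 40.6 and 12.4 FPKM in WT 6, 8 and 9. Its libraries stood in the same order as those of Spp1, except that the lowest pair in Prdx1 C52S was exchanged.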

How the data were processed

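Poly(A) RNA was sequenced in pairs from 6 strand-marked liver libraries with molecular identifiers, per the labels' protocols. The authors deposited 1 table that holds FPKM values and estimated counts per gene, per the file headers. Software listed by the submitters' processing notes, without roles, was HISAT2 2.0.4, cutadapt 1.9, StringTie 1.3.4d, UMI-tools, edgeR and DESeq2. Those notes name the build mm9, while the deposited coordinates of all 10 members equal those of GENCODE M21 on GRCm38. Low estimated counts heap at 4 (6204 values, against 3538 at 3), so they are not plain read tallies and count models may take low values as too precise. Whether molecular identifiers and strand were used in counting is not given in the sources used here.

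Rounded estimated counts were tested with edgeR 4.0.16 (R 4.3.3; filterByExpr, TMM, robust quasi-likelihood F-test, two-sided, Benjamini-Hochberg over 18931 genes, threshold 0.05). TMM factors were 0.883 to 0.92 in Prdx1 C52S and 1.03 to 1.28 in WT, so equal FPKM gives a positive fold change. Alternatives were DESeq2 1.42.0, limma 3.58.1, other scalings, no filter and leaving out each library. The edgeR script was tested on simulated data. Each SE was derived from the F statistic. Near-identical transcripts were sought with BLAST 2.17.0 (at least 95% identity over 100 bases). Members, lists and motifs were chosen with earlier results of these data known. From each list at most 4 genes with the smallest p were named, besides the members, Prdx1, Krt19, Adgre1, Clec4f and Alb. The 5 nearest profiles of Trem2, Gpnmb and Spp1 were also named. They were sought outside the members, among genes of at least 1 FPKM in a group and without predicted models. Syk, Apoe, Apob, Creg1 and Cd63-ps, Gm6166, Gm14328 and Gm42793 were named after their values were seen. Cd68, Cd44 and Fabp4 each stand in 2 lists.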

Additional observations from a re-analysis of the deposited data

How the results depend on the processing

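All 130 alternative fits of single members kept the negative direction, with log2 fold changes from -2.44 to -0.32, and 12 of them passed adjusted p 0.05 (6 in DESeq2, 5 in voom and 1 in limma). The count of members called lower was 0 in edgeR, 6 in DESeq2, 5 in voom, 1 (Cd63) in limma on log2(FPKM + 0.1) and 0 in limma on log2(FPKM + 1), with other scalings, without a filter and without any 1 library. The members' median was -0.81 and ran from -1.0 to -0.61 without 1 library. Over all genes, edgeR called 0 lower and 0 higher. DESeq2 called 1723 lower and 1399 higher, voom 1006 and 1023, limma 94 and 39 on log2(FPKM + 1) and 221 and 59 on log2(FPKM + 0.1). EdgeR called 125 lower and 35 higher with library totals only and 91 and 105 without a filter. Without 1 library it called between 0 and 375 lower and between 0 and 522 higher, the largest counts without WT 8, then 69 and 63 without WT 9. The median of all genes was -0.34 with library totals only, against -0.03 with TMM, and the members' median was -1.07, against -0.81, so that the gap to all genes hardly differed.

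Relative to the macrophage markers, leaving out 1 library gave -0.36 to -0.06 for Trem2, -0.45 to 0.40 for Gpnmb, -0.61 to 0.16 for Cd9, -1.06 to -0.51 for Cd63, -1.67 to -0.78 for Spp1, -0.14 to 0.20 for Lgals3, -0.0145 to 0.18 for Capg, -0.31 to 0.14 for Fabp5, -0.0323 to 0.50 for Anxa5 and 0.19 to 0.40 for Atp6v0d2. With a pseudocount of 1 the Lgals3 difference was -0.0646, against 0.03. The cause of these changes of sign was not tested. No paired analysis was possible because the groups share no replicate numbers. With 3 libraries a group, differences near 0 on this scale were not detectable at this precision.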

Other observations

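The protein families of the members were mixed in direction, and edgeR called 0 of their genes with all 6 libraries. Negative fold changes were seen for 53.0% of all genes tested. Of 5 other fatty acid binding proteins tested, 2 had negative fold changes. Fabp1, the abundant carrier of hepatocytes, was at 4395 ± 375 FPKM in Prdx1 C52S, against 2956 ± 1008 FPKM in WT (log2 fold change 0.82, adjusted p = 0.186 by edgeR), opposite in sign to Fabp4 and Fabp5. Its value in WT 8 was 1793 FPKM, and without that library its log2 fold change was 0.51 (adjusted p = 0.043 by edgeR). Of 9 other tetraspanins, 6 were negative. The leukocyte tetraspanin Cd53 was at 6.38 ± 0.136 FPKM in Prdx1 C52S, against 13.0 ± 1.77 FPKM in WT (-0.75), and Tspan4 at 12.8 ± 2.02 FPKM in Prdx1 C52S, against 29.4 ± 3.36 FPKM in WT (-0.91, adjusted p = 0.0553 by edgeR). Both were called lower without WT 8 (adjusted p = 0.0112 by edgeR and 0.0151). Tspan8 was at 3.55, 1.49 and 1.02 FPKM in Prdx1 C52S 1, 2 and 4, against 7.07, 52 and 7.55 FPKM in WT 6, 8 and 9, and its log2 fold change of -3.03 was -1.66 without WT 8.

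Of 7 other annexins, 4 were negative. Anxa1 was at 3.04 ± 0.302 FPKM in Prdx1 C52S, against 5.76 ± 0.645 FPKM in WT (-0.63, adjusted p = 0.0716 by edgeR). Without WT 8 the Anxa1 value was -0.64 (adjusted p = 0.04 by edgeR). Anxa3 was at 22.7 FPKM in WT 8 and between 2.32 and 6.03 FPKM in the other 5 libraries. Among the galectins, Lgals9 was at 175 ± 14.6 FPKM in Prdx1 C52S, against 136 ± 12.6 FPKM in WT (0.63, adjusted p = 0.11 by edgeR), opposite in sign to Lgals3. Without WT 8 the Lgals9 value was 0.48 (adjusted p = 0.0483 by edgeR). Gelsolin, Gsn, a relative of Capg, was at 12.1 ± 2.5 FPKM in Prdx1 C52S, against 37.2 ± 20.9 FPKM in WT (-1.28, adjusted p = 0.0962 by edgeR), and was -0.91 without WT 8.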
